A study of Mus musculus with 2 samples.

Results

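The constitutive proteasome subunit genes were taken as every gene of the deposited tables whose symbol was Psma, Psmb, Psmc or Psmd followed by a number, without the immunoproteasome genes Psmb8, Psmb9 and Psmb10. This gave 36 of the 32285 genes listed. There were 16 core particle genes (Psma1 to Psma8, Psmb1 to Psmb7 and Psmb11) and 20 regulatory particle genes (Psmc1 to Psmc6 and Psmd1 to Psmd14). They were read in 2 libraries of droplet-based single-cell RNA sequencing from colorectal tumours that azoxymethane and dextran sulphate sodium (AOM/DSS) had induced in mice. The library labelled STK25 wKO came from STK25 global knockout mice and that labelled WT from wild-type mice, with the tumours of each group pooled before dissociation with trypsin. The labels give no age or number of mice and also mention a cell sort by mCherry, which the study's methods do not describe. With 1 library for each group, the differences below have no replicate check, and no test was made.

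The proteasome is the protease that degrades ubiquitin-tagged proteins in the cytosol and nucleus of all cells. Its core particle is a barrel of outer alpha rings (Psma genes), which gate the entry, and inner beta rings (Psmb genes), which hold the proteolytic sites. The regulatory particle caps the barrel: the ATPases of its base (Psmc genes) unfold the substrate, and the remaining base and lid subunits (most Psmd genes) bind ubiquitin chains and remove them. Dividing and secreting cells, intestinal epithelium among them, depend on it, and immune cells replace the catalytic subunits Psmb5, Psmb6 and Psmb7 by Psmb8, Psmb9 and Psmb10, in this order, for antigen processing.

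The library labelled STK25 wKO held 14168 cell barcodes with 66297749 UMIs (unique molecular identifiers, each counting 1 captured transcript) and the library labelled WT 12542 barcodes with 38737373 UMIs. The median was 2065 and 1386.5 UMIs per barcode, and 230 barcode sequences occurred in both libraries. Stk25, the targeted gene, stood at 127 and 118 UMIs per 1000000 (CPM) over all cells (log2 ratio 0.11, 0.05 to 0.16) and at 162 and 175 CPM in epithelial-like cells (log2 ratio -0.11, -0.17 to -0.05), so its UMIs persisted in the library labelled STK25 wKO. A count at the 3′ end checks a deletion only where it removes that end, and the study's text does not give the allele. Every direction below is one between libraries so labelled. Clustering of the 13883 and 12270 cells kept gave 33 clusters. Of the 14 classes named by marker genes, 9 had at least 100 cells in each library and were compared. A pair of measures differed between the libraries in the classes compared. The first, Malat1, is a nuclear non-coding RNA, and some clusters within the classes did not share its difference. By class it was lower in the library labelled STK25 wKO in all 9, with log2 ratios of -1.18 to -0.26. Markers of other cell types were higher there: the 14 epithelial markers summed to 2633 to 6204 CPM in the 7 non-epithelial classes of the library labelled STK25 wKO and to 1315 to 4677 CPM in those of the library labelled WT, 11 to 14 of the 14 were higher in each class, and none was at 0. The 9 neutrophil markers summed to 373 to 2069 CPM and 45.0 to 481 CPM in the 8 other classes, with 7 to 9 of 9 higher. The neutrophil marker Ngp was at 0 in all 8 of these classes of the library labelled WT and Mmp8 in 7. The part of either measure in the results was not tested.

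Epithelial-like and dendritic-like cells had the most transcripts of proteasome genes per UMI, and neutrophil-like cells the fewest, in both libraries. The 36 genes together made up 5534 CPM of epithelial-like cells in the library labelled STK25 wKO (5511 to 5557, the 95% Poisson interval) against 4540 CPM for the library labelled WT (4511 to 4569). Dendritic-like cells had 5389 CPM (5234 to 5547), which overlapped with epithelial-like cells, and 4117 CPM (3981 to 4256), which did not. Neutrophil-like cells had 2378 CPM (2328 to 2429) and 2117 CPM (1954 to 2290). Intervals throughout cover counting error only. Behind the leading pair came goblet or secretory epithelial-like cells, with 4411 and 3188 CPM, and then endothelial-like cells, with 4107 and 3065 CPM. In the library labelled STK25 wKO, the fibroblast-like, T or NK cell-like and macrophage or monocyte-like classes followed with intervals that overlapped from one to the next, at 3764, 3663 and 3618 CPM. B cell-like cells had 3303 CPM there. In the library labelled WT, goblet, endothelial-like and fibroblast-like cells (3020 CPM) overlapped in the same way, and so did B cell-like, T or NK cell-like and macrophage or monocyte-like cells, at 2677, 2666 and 2537 CPM.

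**Figure D1:**
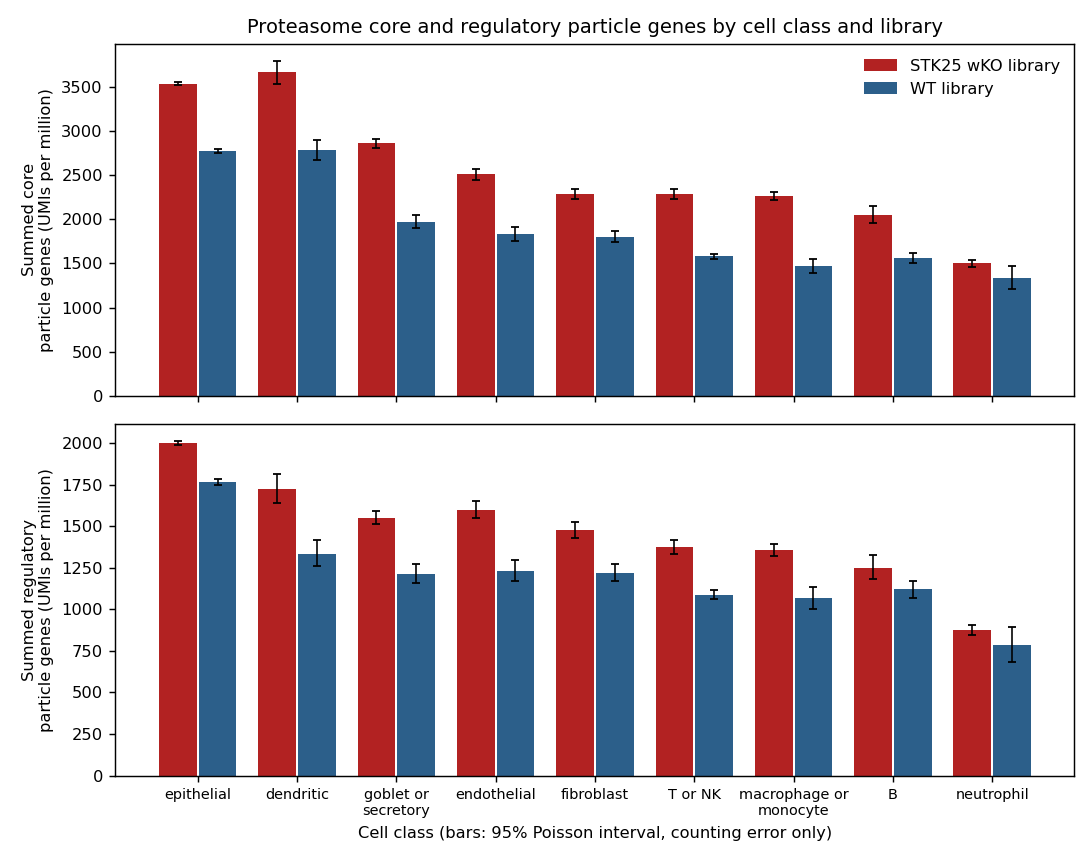
Summed level of the core particle genes (upper panel) and the regulatory particle genes (lower panel) in CPM (UMIs per 1000000), by cell class, with the library labelled STK25 wKO in red and the library labelled WT in blue; error bars are 95% Poisson intervals. The red bar is higher in all 9 classes of both panels, and core particle genes of epithelial-like cells stand at 3533 and 2776 CPM.

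The epithelial lead depended on how cells were weighted. On the log2 scale, the summed genes of epithelial-like cells were 0.58 above the median of the other 8 classes in the library labelled STK25 wKO and 0.67 above it in the library labelled WT. With every cell given the same weight, these differences were 0.21 and 0.14, and with each cell thinned to 1000 UMIs they were 0.25 and 0.22. After thinning, epithelial-like cells had a mean of 3.97 proteasome UMIs per 1000 in the library labelled STK25 wKO (4168 cells, with 143 shallower cells left out) and 3.03 in the library labelled WT (2253 cells, 145 left out). Unthinned, the means were 52.0 and 39.7 UMIs per cell. Dendritic-like cells stood above epithelial-like cells after thinning, with means of 4.83 and 3.31 UMIs per 1000.

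Between libraries, both particles were higher in the library labelled STK25 wKO in all 9 classes. The core ratio was the larger one in each class, an order that depended on the weighting of cells in 3 of them. With each cell thinned to 1000 UMIs, the core and regulatory log2 ratios were 0.27 and 0.33 in goblet or secretory cells, 0.31 and 0.37 in endothelial-like cells and 0.06 and 0.20 in neutrophil-like cells. Core particle genes of epithelial-like cells stood at 3533 and 2776 CPM (log2 ratio 0.35, 95% interval 0.33 to 0.36), and regulatory particle genes at 2001 and 1764 CPM (log2 ratio 0.18, 0.16 to 0.20). The widest core difference was in macrophage or monocyte-like cells, with 2264 and 1469 CPM and a log2 ratio of 0.62 (0.54 to 0.70). T or NK cell-like cells had 2288 and 1578 CPM (0.54). Goblet or secretory cells had 2859 and 1973 CPM (0.53), but as a mean over cells their core log2 ratio was 0.24 and the regulatory one 0.30. Core log2 ratios of B cell-like, dendritic-like, endothelial-like and fibroblast-like cells lay between 0.35 and 0.45. The regulatory particle ranged over these classes from 0.16 (0.06 to 0.27) in B cell-like cells to 0.38 (0.29 to 0.46) in endothelial-like cells. In neutrophil-like cells the core log2 ratio was 0.17 (0.02 to 0.32) and the regulatory one 0.16 (-0.03 to 0.36).

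The makeup of some classes differed between the libraries and moved these values. A T or NK cell-like cluster, numbered 0, had 93 cells of the library labelled STK25 wKO and 2666 of the library labelled WT, and without it the core log2 ratio of that class was 0.38 and the regulatory one 0.31. A neutrophil-like cluster, numbered 15, had 585 and 3 cells, and without it the neutrophil-like ratios were 0.43 and 0.47. With likely doublets removed they were -0.01 and -0.07, so neutrophil-like cells, of which the library labelled WT had 225, showed no stable direction.

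In epithelial-like cells, the difference was spread thinly over nearly all genes of the family. Of the 36 genes, 34 had at least 20 UMIs there, and 32 of these 34 had a log2 ratio above 0, against 37.6% of all 16383 genes tested. Their median log2 ratio was 0.27, against -0.14 for all genes tested. None of the 34 passed the size rule of 0.5, which 7.47% of all genes passed upward, and 17 passed 0.25, against 19.2% of all genes. Over all cells, 33 of 35 genes tested were above 0, against 38.3% of all genes, and Psmb5 (0.55) and Psmb6 (0.53) were the 2 past 0.5, against 9.3%. In epithelial-like cells, the interval lay above 0 for all 14 core particle genes and for 13 of 20 regulatory particle genes, and below 0 for none. The share of all genes with such intervals was not computed, so these counts have no background beside them. Median-of-ratios scaling centres the genes with at least 50 UMIs and with counts in both libraries. It shifts every ratio of this class up by 0.13, and with it all 34 were above 0 and 6 passed 0.5.

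The alpha ring genes lay in a narrow band, with all 7 log2 ratios between 0.24 and 0.40. Psma7 (chromosome 2, 180036374 to 180042433, GRCm38), which like Psma3 encodes an alpha ring subunit, had 392 CPM in the library labelled STK25 wKO and 297 CPM in the library labelled WT, a log2 ratio of 0.40 (0.35 to 0.44). Psma3 (chromosome 12, 70974621 to 70996347) had 336 and 284 CPM (log2 ratio 0.25, 0.20 to 0.29). The counting intervals of the 2 libraries did not overlap for either gene. Psma2 had 278 and 215 CPM (0.37), Psma5 204 and 158 CPM (0.37), Psma6 166 and 134 CPM (0.30), Psma4 146 and 119 CPM (0.29) and Psma1 134 and 114 CPM (0.24). All 7 encode structural subunits of the same ring, and their sum stood at 1656 and 1321 CPM (log2 ratio 0.33, 0.31 to 0.35).

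The beta ring held the highest ratios of the family and, among its catalytic subunits, a gene well below the rest. Psmb5 (chromosome 14, 54614119 to 54618022, minus strand), the chymotrypsin-like subunit and the main target of proteasome inhibitor drugs, had 331 and 243 CPM (log2 ratio 0.44, 0.40 to 0.49). Psmb6 (chromosome 11, 70525367 to 70527858), the caspase-like subunit, had 293 and 218 CPM (log2 ratio 0.43, 0.38 to 0.48). The third catalytic subunit, Psmb7 (chromosome 2, 38588036 to 38644087, minus strand), which is trypsin-like, had 98.0 and 90.9 CPM (log2 ratio 0.11, 0.03 to 0.19), and its interval did not meet those of Psmb5 and Psmb6. Among the structural subunits, Psmb3 had 351 and 268 CPM (0.39) and Psmb1 335 and 265 CPM (0.34). Psmb4 had 243 and 194 CPM (0.33) and Psmb2 225 and 175 CPM (0.36), so that of the beta ring genes only Psmb7 lay below 0.3. The ring summed to 1876 and 1454 CPM (log2 ratio 0.37, 0.35 to 0.39).

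Regulatory particle genes ranged more widely. The 6 ATPases of the base, which form the ring that unfolds substrates, summed to 611 and 527 CPM (log2 ratio 0.21, 0.18 to 0.25). Of them, Psmc5 had 114 and 91.2 CPM (log2 ratio 0.32), Psmc3 140 and 113 CPM (0.31), and Psmc6 102 and 101 CPM (log2 ratio 0.02, -0.06 to 0.10). Psmc2 (0.22), Psmc4 (0.20) and Psmc1 (0.17) lay in between. The base scaffold and ubiquitin receptor genes were nearly level, with a sum of 337 and 325 CPM (log2 ratio 0.05, 0.01 to 0.10). Psmd1, a scaffold subunit, had 117 and 118 CPM (log2 ratio -0.01, -0.08 to 0.06), and Psmd2, the other scaffold, 99.6 and 94.8 CPM (log2 ratio 0.07, -0.01 to 0.15). Psmd4, a ubiquitin receptor, had 121 and 112 CPM (log2 ratio 0.10, 0.03 to 0.17). The lid genes summed to 931 and 809 CPM (log2 ratio 0.20, 0.18 to 0.23). Of its structural subunits, Psmd6 reached 85.5 and 65.3 CPM (0.39), Psmd8 167 and 131 CPM (0.35) and Psmd7 167 and 144 CPM (0.21). Psmd14, the lid's deubiquitinating enzyme (chromosome 2, 61711694 to 61800376), had 112 and 113 CPM (log2 ratio -0.02, -0.09 to 0.05). Psmd1 and Psmd14 were the members below 0, and under median-of-ratios scaling both were above 0, at 0.12 and 0.11. Psmd3 (0.05) and Psmd11 (0.06), also lid genes, had intervals that included 0, and Psmd13 (0.29) and Psmd12 (0.23) did not.

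Products of 3 Psmd genes are assembly chaperones of the base and not subunits of the finished particle. Psmd10 had 41.1 and 31.8 CPM (log2 ratio 0.37, 0.24 to 0.50), Psmd9 47.8 and 41.5 CPM (0.20), and Psmd5 32.2 and 29.6 CPM (log2 ratio 0.12, -0.02 to 0.26). Without these 3 genes the regulatory particle sum had the same log2 ratio of 0.18.

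**Figure D2:**
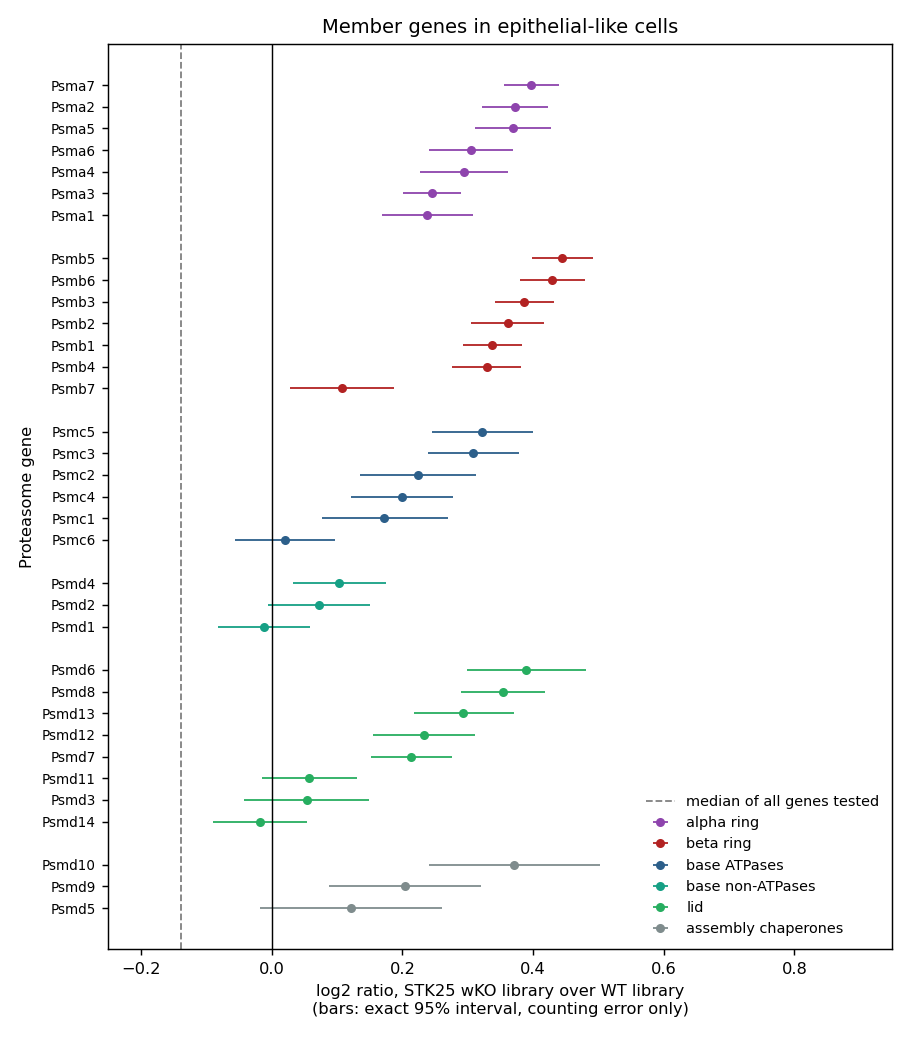
Log2 ratio of the library labelled STK25 wKO over the library labelled WT for each of 34 proteasome genes in epithelial-like cells, grouped by place in the complex, with exact 95% intervals; the dashed line is the median of all genes tested, -0.14. All core particle genes lie right of 0, and Psmd14 and Psmd1 lie at it.

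The stretches just upstream of 4 genes are shown, since among the genes whose RefSeq window lies mostly ahead of both annotated starts these had the 2 highest and the 2 lowest log2 ratios in epithelial-like cells. Psmd1, at the low end too, did not meet this condition, and its full window held TGANNNNGC, the first of the motifs searched. They come from RefSeq (GRCm38.p6), end before the annotated gene start, and are from chr14:54618023-54618245 (minus strand), chr11:70525107-70525356 (plus strand), chr14:45329574-45329787 (plus strand) and chr2:61711444-61711693 (plus strand). Capitals mark the motif TGANNNNGC, the core of the antioxidant response element that the factors Nfe2l1 and Nfe2l2 bind, and the CCAAT box, each read on both strands.
Psmb5: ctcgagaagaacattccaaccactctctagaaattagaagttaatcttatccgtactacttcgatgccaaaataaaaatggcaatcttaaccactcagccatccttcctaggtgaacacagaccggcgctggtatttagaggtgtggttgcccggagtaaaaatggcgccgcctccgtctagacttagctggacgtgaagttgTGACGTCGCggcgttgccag
Psmb6: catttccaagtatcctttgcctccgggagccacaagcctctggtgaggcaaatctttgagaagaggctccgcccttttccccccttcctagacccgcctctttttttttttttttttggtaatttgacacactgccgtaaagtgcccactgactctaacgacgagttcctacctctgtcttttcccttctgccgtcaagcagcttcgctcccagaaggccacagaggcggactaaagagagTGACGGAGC
Psmc6: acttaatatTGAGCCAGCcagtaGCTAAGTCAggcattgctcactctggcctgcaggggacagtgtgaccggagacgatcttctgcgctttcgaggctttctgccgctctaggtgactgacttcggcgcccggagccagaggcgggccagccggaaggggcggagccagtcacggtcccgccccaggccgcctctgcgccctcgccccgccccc
Psmd14: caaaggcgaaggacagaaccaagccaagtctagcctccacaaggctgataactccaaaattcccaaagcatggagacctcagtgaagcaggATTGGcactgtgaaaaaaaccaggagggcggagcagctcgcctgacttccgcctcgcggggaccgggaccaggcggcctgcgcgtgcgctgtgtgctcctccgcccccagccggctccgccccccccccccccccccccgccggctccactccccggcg
TGANNNNGC occurred once upstream of Psmb5 and once upstream of Psmb6, both with log2 ratios above 0.4, but also 2 times upstream of Psmc6, whose ratio was near 0. In the full RefSeq windows of 300 bases, which were found for 29 of the 36 genes, 17 of 29 (58.6%) held TGANNNNGC, against 45.0% of 27025 genes. The form TGACTCAGC, a special case of it with every base set, was in 0 of 29 windows, against 0.503% of all. CCAAT was in 12 of 29 (41.4%), against 41.1% of all. Psmb7, Psmc3, Psmb2, Psmd7, Psmd3, Psmb1 and Psma8 had no window.

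Epithelial-like cells fell into 2 kinds of clusters, parted here by depth after their values were seen, and proteasome genes differed far more between these than between libraries. Clusters 12, 13, 14 and 16, each with a median above 10000 UMIs per cell over both libraries, were deep, with medians of 14724 UMIs per cell in the library labelled STK25 wKO and 13268 in the library labelled WT. Clusters 5, 6 and 9 were shallow, with 2592 and 3220. Another epithelial-like cluster, numbered 32, held 2 and 17 cells and was left out of both kinds for its size, and its core particle genes stood at 460 and 1051 CPM. In the deep clusters the genes summed to 6319 CPM (6291 to 6346) and 5830 CPM (5788 to 5871), and in the shallow clusters to 2648 CPM (2613 to 2682) and 2422 CPM (2388 to 2457). The deep clusters also had less Malat1, with 4068 and 5715 CPM against 20328 and 19885 CPM in the shallow ones, and fewer mitochondrial UMIs, with medians of 1.91% and 1.93% against 9.01% and 8.32%. Ribosomal protein genes took 14.5% and 12.8% of UMIs in the deep clusters, against 4.90% and 4.39% in the shallow ones. Between these 2 kinds of clusters, the proteasome level thus went with depth, Malat1, mitochondrial share and ribosomal share. The kinds also differed in their leading genes. The part of each of these in the level was not tested.

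This contrast followed the particles too. The ratio of core to regulatory UMIs was 1.85 and 1.74 in the deep clusters and 1.20 and 1.07 in the shallow clusters. Psmb5 had 390 CPM in deep and 112 CPM in shallow clusters of the library labelled STK25 wKO, a log2 difference of 1.80, and 335 and 92.1 CPM in the library labelled WT, 1.86. Psmb3 (1.73 and 1.85) and Psmb6 (1.71 and 1.79) came next. Psmd14 had 110 and 120 CPM in deep and shallow clusters of the library labelled STK25 wKO (-0.13) and 109 and 122 CPM in those of the library labelled WT (-0.17), the lowest contrast of the 34 genes in both. Over the 34 genes, the deep to shallow contrast of one library followed that of the other (Pearson r = 0.98 across genes, which are not independent replicates).

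The library labelled STK25 wKO had a larger share of its epithelial-like cells in the deep clusters, 42.8%, against 29.0% in the library labelled WT. The difference between libraries shrank once the kinds were held apart. In the deep clusters alone the core log2 ratio was 0.15, the regulatory one 0.06 and the median over the 34 genes 0.10. In the shallow clusters alone they were 0.21, 0.04 and 0.13. Of the 34 genes, 26 were above 0 in the deep clusters, against 42.5% of all genes there, and 28 in the shallow clusters, against 43.4%. All genes tested had a median of -0.05 in both. Averaged over the 7 clusters, the core log2 ratio was 0.19 and the regulatory one 0.08, against 0.35 and 0.18 for the class as a whole. In each of these 7 larger clusters core particle genes were higher in the library labelled STK25 wKO, by 0.09 to 0.30 on the log2 scale and with intervals above 0. The regulatory particle was higher by 0.01 to 0.17, with the interval above 0 in 4 of 7. The member ratios in the whole class also followed the deep to shallow contrast of the library labelled WT across the 34 genes (r = 0.88). This correlation is partly built in. The class pools both kinds of clusters in unequal shares, and counts of the library labelled WT enter both values.

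**Figure D3:**
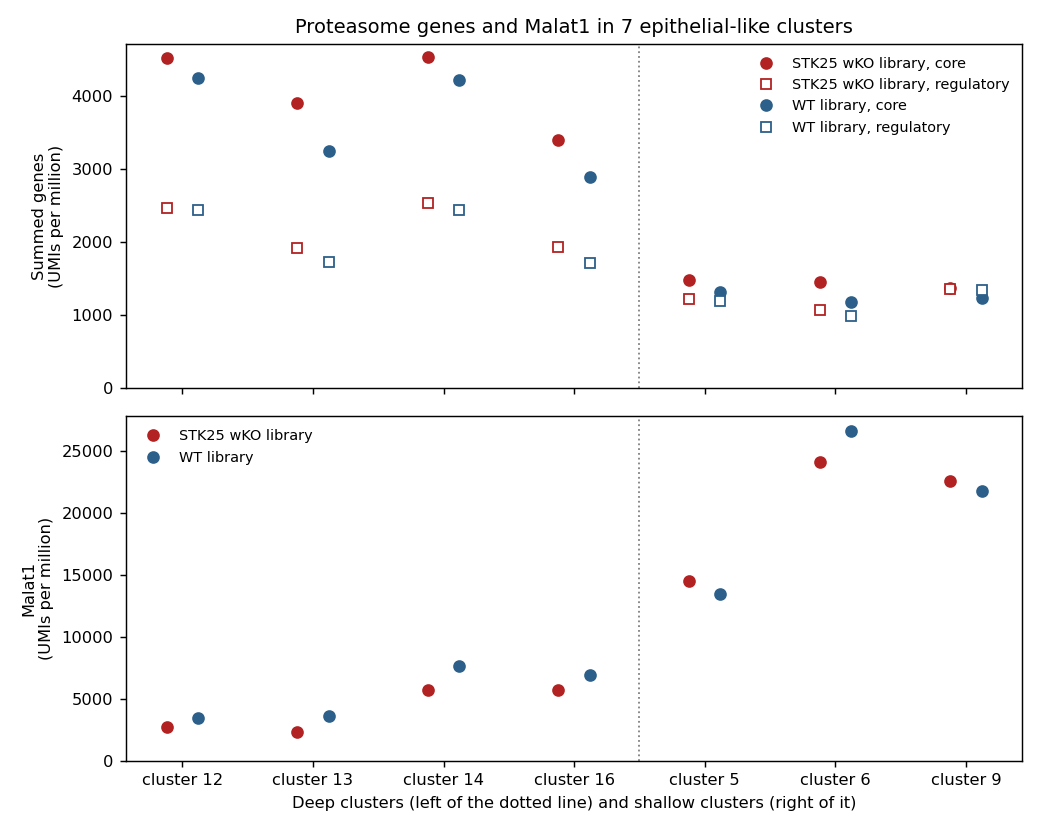
Summed core (filled circles) and regulatory (open squares) particle genes (upper panel) and Malat1 (lower panel) in CPM (UMIs per 1000000) in 7 epithelial-like clusters, with the library labelled STK25 wKO in red, left, and the library labelled WT in blue. Deep clusters, left of the dotted line, have 2887 to 4532 CPM of core particle genes and the shallow clusters 1181 to 1487 CPM.

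The ratio between libraries also went with the length of the gene. In epithelial-like cells, short genes tended to be higher in the library labelled STK25 wKO and long genes lower: 2418 other genes under 5 kb had a median log2 ratio of 0.13, and 2803 of 80 kb and more one of -0.43. The ratios of proteasome genes also tended to be lower in longer genes, with r = -0.53 between log2 span and log2 ratio over the 34 genes (rho = -0.50). This is a description across genes, and no slopes were compared. The 3 members under 5 kb (Psmb4, Psmb5 and Psmb6) had a median of 0.43, the 9 members of 5 to 10 kb one of 0.32 against 0.07 for the other genes, and the 9 of 10 to 20 kb one of 0.22 against -0.02. The 7 members of 20 to 40 kb had a median of 0.30 against -0.13, the 4 of 40 to 80 kb one of 0.08 against -0.27, and the 2 longer ones one of 0.09 against -0.43. The median of the members lay above that of the other genes in every bin of this class. Other genes fell with span in all 9 classes. Their medians under 5 kb and at 80 kb and more were 0.44 and -0.57 in macrophage or monocyte-like cells, the widest fall. In fibroblast-like cells, with the narrowest fall, they were 0.23 and -0.18. The members of 5 to 10 kb had a median of 0.18 in B cell-like cells, below the 0.30 of the other genes.

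Psmb7, with 56.1 kb, was the longest catalytic gene, against 3.90 kb for Psmb5 and 2.49 kb for Psmb6, and Psmd1 and Psmd14 spanned 74.8 and 88.7 kb. Psma2 (61.0 kb) and Psmd9 (80.7 kb) spanned more in GENCODE than in RefSeq, where their lengths are 12432 and 21937 bases, and their ratios were 0.37 and 0.20. With RefSeq spans, r was -0.61. The core particle's median span was 16.6 kb and that of the regulatory particle 13.3 kb. The 3 shortest members were all core particle genes, and log2 span and log2 ratio had r = -0.49 within the core and -0.62 within the regulatory particle. The part of gene span in the ratios was not tested.

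**Figure D4:**
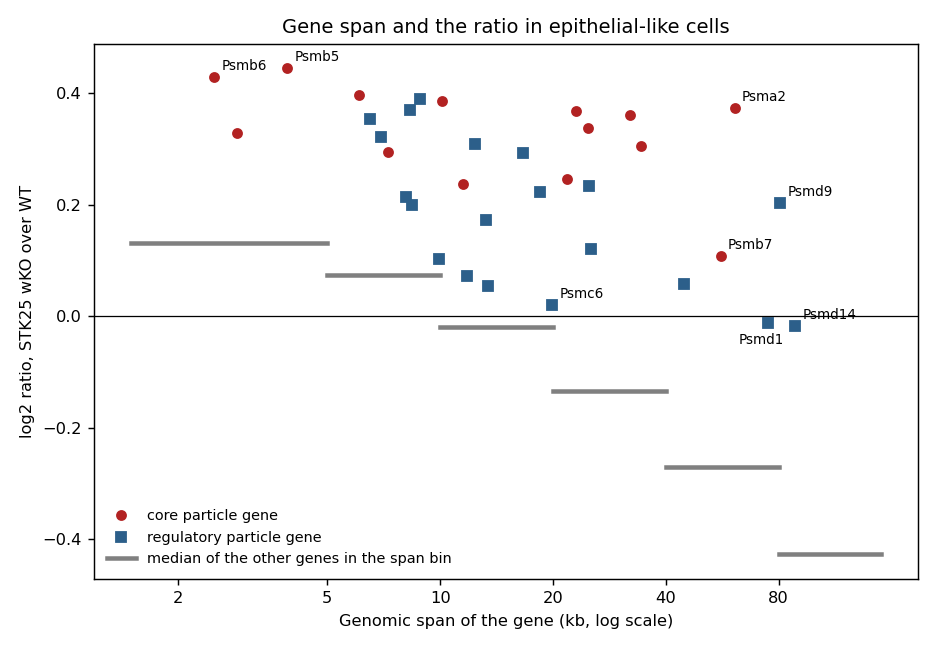
Log2 ratio of the library labelled STK25 wKO over the library labelled WT in epithelial-like cells against the genomic span of the gene in kb (log scale), for 14 core (red circles) and 20 regulatory particle genes (blue squares); grey lines give the median of all other genes in each span bin. The grey lines step down from 0.13 to -0.43, and the proteasome genes lie above them.

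Across the 9 classes, 16 of the 34 genes were higher in the library labelled STK25 wKO in every class, and 12 more in 8 of 9. Of all 7109 genes with at least 20 UMIs in each class, 11.3% were higher in all 9. The classes share the 2 libraries and are not independent. Shares of all genes, here and by class below, mix short and long genes. Of the other genes under 5 kb, from 60.2% in epithelial-like to 79.5% in B cell-like cells were above 0. The 16 were Psma1, Psma2, Psma6, Psma7, Psmb1, Psmb3, Psmb4, Psmb5, Psmb6, Psmc2, Psmc3, Psmd2, Psmd4, Psmd6, Psmd8 and Psmd13. Psmc2 rested there on 1 UMI of neutrophil-like cells in the library labelled WT. Without neutrophil-like cells, a choice made after seeing the data, 23 of 34 genes were higher in all 8 classes, against 14.9% of all genes. Psmb5 was the steadiest of the catalytic genes, with log2 ratios from 0.40 in endothelial-like to 0.71 in T or NK cell-like cells. At the other end, Psmd14 was higher in 3 classes (from -0.28 to 0.15), Psmd5 in 4 (-0.35 to 0.52) and Psmb7 in 5 (-0.19 to 0.30).

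In T or NK cell-like cells, 31 of 34 genes were above 0, against 51.1% of all genes, and 13 passed 0.5, against 20.9%. Psmd10 had 43.7 and 19.3 CPM there, a log2 ratio of 1.18 (0.81 to 1.55), Psmd8 113 and 62.7 CPM (0.85) and Psmb6 160 and 93.4 CPM (0.78). Psmb3 (0.76) and Psmb5 (0.71) followed. Psmb7, with 70.8 and 72.5 CPM, and Psmd14, with 123 and 124 CPM, were level, and Psmd5 was at -0.17 (-0.59 to 0.24).

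In macrophage or monocyte-like cells, 32 of 34 genes were above 0 (43.4% of all genes) and 16 passed 0.5 (18.7%). Psmd8 had 130 and 55.3 CPM (log2 ratio 1.23, 0.82 to 1.66), Psmb3 216 and 101 CPM (log2 ratio 1.09, 0.79 to 1.40), and Psmb6 185 and 102 CPM (0.86). Psmd10 and Psma2 were each at 0.84. Psmd14 had 115 and 134 CPM (log2 ratio -0.22, -0.50 to 0.07). The library labelled WT had 322 of these cells and 2476 proteasome UMIs in them.

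Goblet or secretory cells had 31 of 34 genes above 0 (40.6% of all genes) and 17 past 0.5 (14.4%). Psmd10 led again, with 43.9 and 22.2 CPM (0.99), followed by Psma5 with 152 and 91.3 CPM (0.74) and Psmb6 with 241 and 146 CPM (0.73). Within its 2 clusters the core log2 ratio was lower than the 0.53 of the whole class, at 0.33 in cluster 21 and 0.06 in cluster 17. Cluster 21 had medians of 11773 and 1269 UMIs per cell in the 2 libraries, and the part of depth in its ratio was not tested. Fibroblast-like cells had 32 of 34 genes above 0 (51.9% of all genes) but 2 past 0.5 (14.4%), Psmc4 with 81.2 and 46.2 CPM (0.81) and Psmc2 with 53.1 and 35.0 CPM (0.60).

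Endothelial-like cells had 33 of 34 genes above 0 (50.1% of all genes), dendritic-like cells 31 (41.4%) and B cell-like cells 29 (49.3%). The counts past 0.5 were 12 (15.7%), 10 (15.4%) and 8 (17.3%). Psmd8 led in endothelial-like cells, with 118 and 72.3 CPM (log2 ratio 0.71, 0.36 to 1.07), before Psma5 with 147 and 90.8 CPM (0.69). In dendritic-like cells the base ATPase gene Psmc4 had 99.0 and 54.2 CPM (log2 ratio 0.87, 0.33 to 1.42) and Psmd13 116 and 63.7 CPM (0.86). In B cell-like cells Psmb2 had 140 and 89.2 CPM (log2 ratio 0.65, 0.30 to 0.99), and Psmd14 108 and 132 CPM (log2 ratio -0.28, -0.63 to 0.06). The leading genes of these classes thus came from both particles. In neutrophil-like cells 22 of 34 were above 0 (43.7%) and 11 past 0.5 (24.0%). The interval there lay above 0 for 4 and below 0 for none, a count for which no share of all genes was computed. Psmc2 and Psmd9 had 92 and 59 UMIs there in the library labelled STK25 wKO, against 1 UMI each in the library labelled WT, so that their ratios (2.91, interval 0.40 to 8.23, and 2.27, interval -0.27 to 7.60) rest on those single counts.

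**Figure D5:**
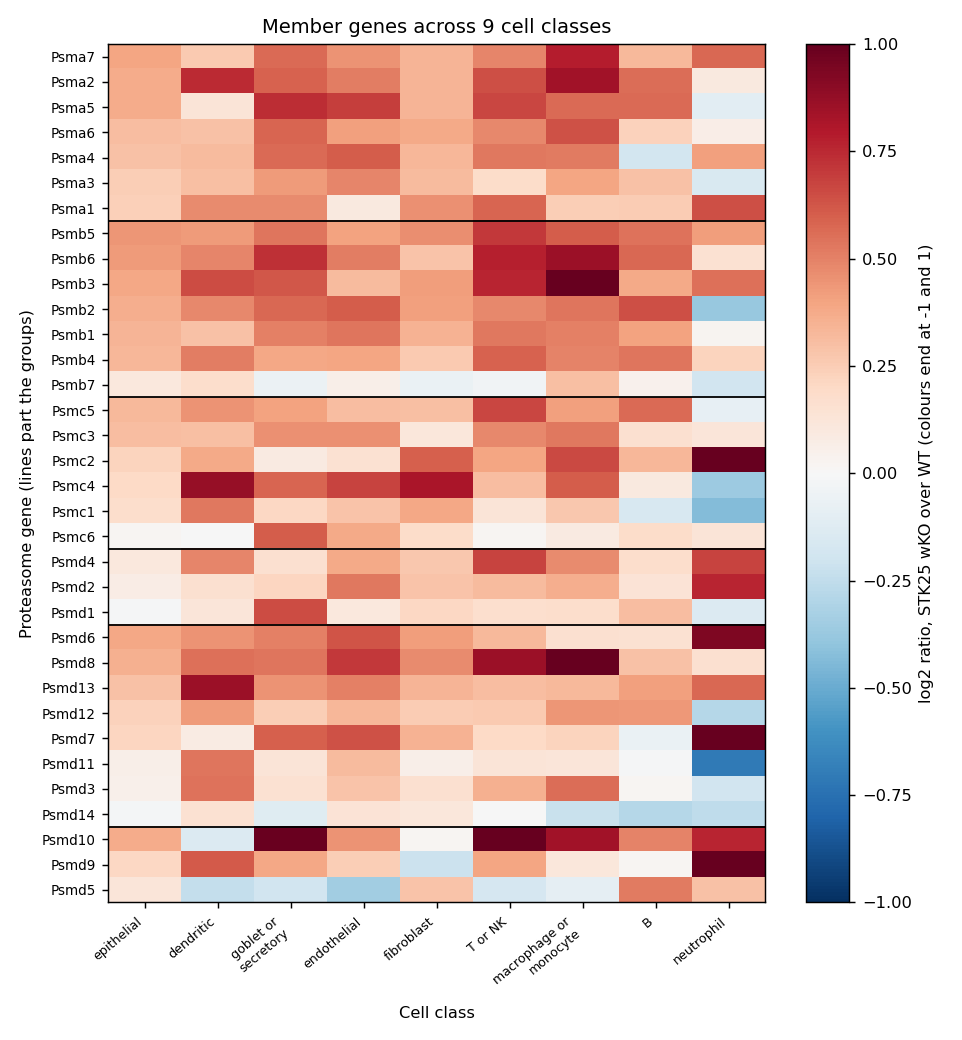
Log2 ratio of the library labelled STK25 wKO over the library labelled WT for 34 proteasome genes (rows, parted by group) in 9 cell classes (columns), in colours that end at -1 and 1. Most cells of the map are red, the Psmb7, Psmd14 and Psmd5 rows are pale or mixed, and the neutrophil-like column is the most mixed, with 22 of 34 genes above 0.

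The excess of core over regulatory particle UMIs was larger in the library labelled STK25 wKO in all 9 classes when UMIs were summed, though not with cells thinned in the goblet, endothelial-like and neutrophil-like classes. Of 24 named clusters with at least 50 cells in each library, 19 had the larger ratio for the core particle. The ratio of core to regulatory UMIs was 1.77 (1.75 to 1.78) and 1.57 (1.55 to 1.59) in epithelial-like cells, 1.67 (1.62 to 1.73) and 1.38 (1.27 to 1.49) in macrophage or monocyte-like cells and 1.66 and 1.45 in T or NK cell-like cells. It was highest in dendritic-like cells, with 2.12 (1.99 to 2.26) and 2.08 (1.94 to 2.24). Intervals of the libraries overlapped in dendritic-like, neutrophil-like, endothelial-like and fibroblast-like cells.

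The share of immunoproteasome genes among the catalytic transcripts set the classes apart. Of the UMIs of Psmb8, Psmb9, Psmb10, Psmb5, Psmb6 and Psmb7 together, the first 3 took 68.2% (95% exact interval 66.0 to 70.2) of dendritic-like cells in the library labelled STK25 wKO and 70.3% (68.0 to 72.6) in the library labelled WT. The share was 57.6% and 52.7% in T or NK cell-like cells, 34.4% and 32.9% in epithelial-like cells and 27.9% (26.4 to 29.5) and 20.8% (17.9 to 23.8) in goblet or secretory cells. Fibroblast-like cells had 41.4% (39.3 to 43.6) and 32.3% (29.4 to 35.3). The share was higher in the library labelled STK25 wKO in 8 of these 9 classes and lower in dendritic-like cells. The intervals of the libraries overlapped in dendritic-like, B cell-like, macrophage or monocyte-like, neutrophil-like and endothelial-like cells. Psmb8 alone stood at 308 and 138 CPM in T or NK cell-like cells, a log2 ratio of 1.16, and at 923 and 730 CPM in dendritic-like cells, 0.34.

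Other genes of the pathway were mixed in epithelial-like cells, where 37.6% of all genes were above 0. All 3 immunoproteasome genes were above 0, Psmb8 with 155 and 95.8 CPM (0.69). Of the 5 activator and inhibitor genes 3 were above 0. Psme1, with 265 and 188 CPM, and Psme2, with 416 and 300 CPM, which encode the interferon-induced activator ring, had log2 ratios of 0.50 and 0.47, and Psme4, a nuclear activator, had 106 and 133 CPM (log2 ratio -0.33, -0.40 to -0.26). All 5 core assembly chaperone genes were above 0, from Psmg2 at 0.06 to Psmg1 at 0.50, with the maturation factor Pomp at 281 and 240 CPM (0.23).

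Of 12 further regulatory particle subunits and factors, 6 were above 0 and 6 below, against 37.6% of all genes above 0. Sem1, a small lid subunit, had 566 and 482 CPM (0.23) and Adrm1, a ubiquitin receptor, 126 and 108 CPM (0.23). Ube3c, a ubiquitin ligase bound to the proteasome, had 49.1 and 68.1 CPM (log2 ratio -0.47, -0.57 to -0.37). Of 5 genes for the transcription of proteasome genes and its activation, 4 were below 0, as were 10222 of all 16383 genes tested. Nfe2l1, the factor that raises proteasome genes when proteasome activity is short, had 74.2 and 90.5 CPM (log2 ratio -0.29, -0.37 to -0.20), and Ddi2, the protease that activates it, 60.2 and 87.1 CPM (log2 ratio -0.53, -0.62 to -0.44). Both stayed below 0 with median-of-ratios scaling, whereas Nfe2l2 (-0.08), Psme3 (-0.06), Usp14 (-0.09), Rad23b (-0.03) and Ubqln4 (-0.03) came out above 0 with it.

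Ratios above the median of all genes were not limited to the proteasome. All 80 ribosomal protein genes tested were above 0 in epithelial-like cells, with a median log2 ratio of 0.38, and so were all 76 nuclear genes of the respiratory chain, with a median of 0.39, both above the 0.27 of the proteasome genes.

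Over the 18 combinations of class and library, most members went together. The correlation of each gene's level, as log2(CPM + 1), with the sum of the other members had a median of r = 0.88 over 34 genes, from 0.38 for Psmd14 and 0.49 for Psmd5 to 0.96 for Psmb4 and 0.96 for Psma7. For 7551 other genes of at least 20 CPM, the correlation with the summed members had a median of 0.10. These points share 2 libraries, and the summed level also went with the median depth of the class (r = 0.81), ribosomal protein genes (0.80), cell cycle genes (0.70) and Malat1 (-0.58). The other genes with the most similar pattern were Cops6, a subunit of the COP9 signalosome (0.96), Alyref (0.96), Btf3 (0.96), Mrpl20 (0.95), Snrpd3 (0.95), Cenpx (0.95), U2af1 (0.94), Rtraf (0.94), Rbx1, the RING subunit of cullin ligases (0.94), and Ppia (0.94).

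The tissue-restricted core genes were nearly absent. Psma8, the alpha subunit of the testis, had 22 UMIs in all cells of the library labelled STK25 wKO and 16 in those of the library labelled WT, and Psmb11, the beta subunit of cortical thymic epithelium, had 0 and 3. Neither had the 20 UMIs needed for a ratio in epithelial-like cells.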

How the data were processed

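Per gene and barcode, the values that the authors deposited are raw UMI counts made with Cell Ranger 7.1.0 (per the file headers) on mm10. Per the labels, Seurat was also used, and the 3′ kit version was not fixed. The sources used here do not say whether intronic reads were counted.

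Barcodes under 200 genes or over 25% mitochondrial UMIs were removed, which left 13883 and 12270, and the rest were scaled to 10000 per cell, log-transformed and clustered together (2000 variable genes, 30 principal components, 20 neighbours, Leiden resolution 1; scikit-learn 1.9.0, leidenalg 0.10.2, Python 3.11.15, NumPy 2.4.6, SciPy 1.17.1). A cluster took the name of the best of 15 marker sets where at least 3 markers were each in at least 10% of its cells and 5 points above the median cluster, unless markers of another set outnumbered its own among its 10 leading genes. Doublets were left in: Scrublet (scanpy 1.11.5) marked 0% automatically, so the alternative removed the highest scores, 1542 (11.1%) and 1204 (9.81%) cells. Counts were summed per class and library and given per 1000000 UMIs, with exact Poisson or conditional binomial 95% intervals. Genes needed 20 UMIs for a ratio and 50 to be named. Named were all genes of groups of 3 or fewer, the catalytic subunits, the 2 most abundant members of each other group, and up to 5 extremes per class. With 1 library per group, no test was made, and a log2 ratio of 0.5 served as the rule of size. Gene positions are from GENCODE M21 (GRCm38), checked against RefSeq. The ratios and their intervals were tested on simulated counts of the epithelial-like and fibroblast-like classes. The other steps were not tested in this way. Members, lists and thresholds were chosen with earlier results of these data known. UMIs of different genes were set against each other in the ratio of core to regulatory UMIs and in the immunoproteasome share. Counts were not corrected for differences in capture between genes, so these values are not relative levels of the genes. Pseudogenes of Psmb5, Psmb6 and Psmb7 are annotated but are not among the rows counted, so their reads may be split or lost.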

Additional observations from a re-analysis of the deposited data

Results flagged for a closer look

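The cells of 2 clusters without a name took part in no comparison of classes. Their proteasome genes summed to 4487 CPM in the library labelled STK25 wKO and 3952 CPM in the library labelled WT, a log2 ratio of 0.18 (0.14 to 0.23), with the core particle at 0.22 and the regulatory particle at 0.11. Cluster 1 held 2010 and 109 cells and cluster 3 held 162 and 1872 cells, at medians of 783 and 810 UMIs per cell in cluster 1 and of 664 and 675 in cluster 3. The clusters thus took unequal shares of the libraries, and within them the log2 ratio was 0.06 (-0.08 to 0.20) in cluster 1 and 0.25 (0.13 to 0.36) in cluster 3. These clusters were picked out because the interval of their pooled ratio lay above 0, outside the named classes. In cluster 1 alone the interval included 0.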

How the results depend on the processing

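Both particles kept their direction in epithelial-like cells under every alternative run. Their core and regulatory log2 ratios and the median over the genes, which were 0.35, 0.18 and 0.27, were 0.31, 0.15 and 0.22 with the stricter cell filter (500 genes, 10% mitochondrial UMIs), 0.48, 0.31 and 0.40 with median-of-ratios scaling, 0.38, 0.22 and 0.30 with totals that leave out mitochondrial, ribosomal, haemoglobin and immunoglobulin genes, 0.47, 0.25 and 0.35 as a mean over cells, 0.50, 0.22 and 0.38 with each cell thinned to 1000 UMIs, and 0.19, 0.079 and 0.13 as a mean over clusters. They were 0.15, 0.060 and 0.10 in deep clusters alone and 0.21, 0.041 and 0.13 in shallow clusters alone, alternatives chosen after seeing the data, as were those without clusters 0 and 15. Removing doublets gave a core value of 0.33 and a median of 0.25, and no UMI minimum with 1 CPM added a median of 0.24. The count past 0.5, which was 0, was 6 with median-of-ratios scaling, 7 as a mean over cells, 10 after thinning and 17 at a threshold of 0.25. The cause of these shifts was not tested. The epithelial lead over the median of the other classes in the libraries labelled STK25 wKO and WT, 0.58 and 0.67, was 0.59 and 0.69 with no cell filter, 0.62 and 0.76 with the stricter filter, 0.60 and 0.70 at a Leiden resolution of 0.5, 0.61 and 0.70 with the reduced totals, 0.21 and 0.14 as a mean over cells and 0.25 and 0.22 after thinning, and 0.59 in the library labelled STK25 wKO with doublets removed. Core and regulatory particles were higher in the library labelled STK25 wKO in 9 of 9 classes under each alternative but the removal of doublets, which gave 8 of 9. Of 148 alternatives for the 16 sums of the other classes, 146 were above 0, 125 stayed within the counting interval and 22 moved beyond it. Goblet core particle genes were at 0.24 as a mean over cells and 0.27 after thinning against 0.53. The reversal was that of core particle genes in neutrophil-like cells with doublets removed, -0.014, beside -0.07 for the regulatory particle. No paired analysis was possible because there was 1 library per group. Depth limits neutrophil-like cells most, where the library labelled WT had 622 proteasome UMIs.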

Other observations

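Classes with fewer than 100 cells in a library were left out of the comparisons. Plasma cell-like cells (39 and 36 cells) had core particle genes at 1452 CPM in the library labelled STK25 wKO and 790 CPM in the library labelled WT and regulatory particle genes at 748 and 682 CPM. Immunoproteasome genes took 54.5% and 61.3% of their catalytic UMIs. Tuft-like cells (43 and 32 cells), chemosensory cells of the epithelium, had 2497 and 2072 CPM of core and 1497 and 1316 CPM of regulatory particle genes. Pericyte or smooth muscle-like cells (165 and 90 cells) had 2322 and 1662 CPM of core and 1502 and 1226 CPM of regulatory particle genes. Glia-like cells (29 and 27 cells) had 3251 and 1239 CPM of core particle genes, and their Malat1 stood at 14111 and 32811 CPM. Enteroendocrine-like cells (32 and 7 cells) had 240 and 15 core particle UMIs, too few for a level.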
